A study of Mus musculus with 36 samples.

Results

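Gene expression on the autosomes was compared between cultures named double and single on days 5 to 8 of the differentiation of Xmas mouse embryonic stem cells (mESCs). The comparison took the 8 libraries whose names end in double and the 8 whose names end in single, which is 16 of the 36 RNA-seq libraries of the series, and paired them by line and day. Xmas mESCs are female cells on the C57/Bl6 background whose X chromosomes carry a GFP and an mCherry reporter, respectively, at Hprt. Cells of the lines X14 and X18 grew with 2i and LIF, conditions that keep mESCs naive, were weaned into serum medium in steps, and were not passaged once they were in full serum medium. Each of days 5, 6, 7 and 8 had 4 libraries, 1 for each combination of line and name. What double and single stand for is not given in the labels, so both words serve only as names, and there were 2 lines for each name. Nothing says that the days of a culture came from separate cultures, so p-values over the 8 pairs measure the spread between these days and lines, which may be technical in part.

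When 2i and LIF are withdrawn, mESCs leave the naive state, pass through a formative or primed state marked by Otx2 and Fgf5, and then enter lineages. In the embryo, FGF signalling through ERK together with Nodal and Wnt drives cells towards the primitive streak, whose genes include T and Fgf8. Trophoblast and surface ectoderm use another set of factors, among them Tfap2c, Gata2 and Gata3, and germ-line genes are normally shut by DNA methylation and other repressors when cells leave pluripotency. If 2 cultures differed only in speed, the genes that rise with time would be higher in the faster culture and the genes that fall with time would be lower there. If they differed in fate, some genes that rise with time would be higher and others lower.

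Values are given as RPM (reads per 1000000 reads of the library) recovered from the deposited log2 values, whose unit was read from the values themselves, and differences as log2 of double minus single. Reads in genes ranged from 612740 to 1776400 in the double libraries and from 719000 to 2445826 in the single libraries, so that 3 reads correspond to 1.04 to 3.9 RPM. The shallowest library was X14 double on day 5, which also stood apart in its expression: its correlation across genes with the mean day 0 profile of X18 was 0.87, against 0.79 to 0.84 for the other day 5 libraries with the day 0 mean of the other line. Counts are therefore also given without the X14 pair of day 5. As a check of the names, X-linked genes were higher in the double library of all 8 pairs, by a median of 0.42 to 0.93 on the log2 scale relative to autosomal genes, and Xist was higher in double in all 8 pairs. On day 0 the same measure was 0.995 in X18 but -1.15 in X14, so the X14 pair of day 0 went against its names, and day 0 enters here only as the mean of both libraries of a line. The measure was not taken on days 1 to 4, so comparisons with those days rely on the names as given. X-linked genes are not described further.

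The autosomal difference between double and single, averaged over days 5 to 8, was broad, shared by the lines and lay mostly outside the direction of time. Among 11210 autosomal genes averaging 3 RPM or more, 477 were called (limma on the log2 values with a term for each pair, adjusted p under 0.05 and a log2 difference of at least 1), which is 4.26% of those tested. Of these, 312 were higher in double (2.78%) and 165 lower (1.47%). The largest differences were mostly gains: 67 genes were higher by at least 2 on the log2 scale and 8 lower by as much. The sign was the same in 8 of 8 pairs for 316 of the 477 genes (199 higher, 117 lower). Without the X14 pair of day 5, 591 genes were called and 427 of them were higher.

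Both lines showed the difference. Across all autosomal genes tested, the difference in X14 and that in X18 correlated with Pearson's r = 0.68 and Spearman's rho = 0.58, where the points are genes and the lines share no library. The difference between lines passed the test (limma, interaction of name and line) for 0 autosomal genes, with 338 at an unadjusted p under 0.05. Each line alone gave fewer calls, 116 in X14 and 179 in X18, and 66 genes were called in both. With 4 cultures, a regrouping of whole cultures cannot give a p below 0.333. Calls lay on all 19 autosomes, with medians of all tested genes between -0.13 and -0.02 on single chromosomes, and the median over all autosomal genes was -0.06.

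**Figure D1:**
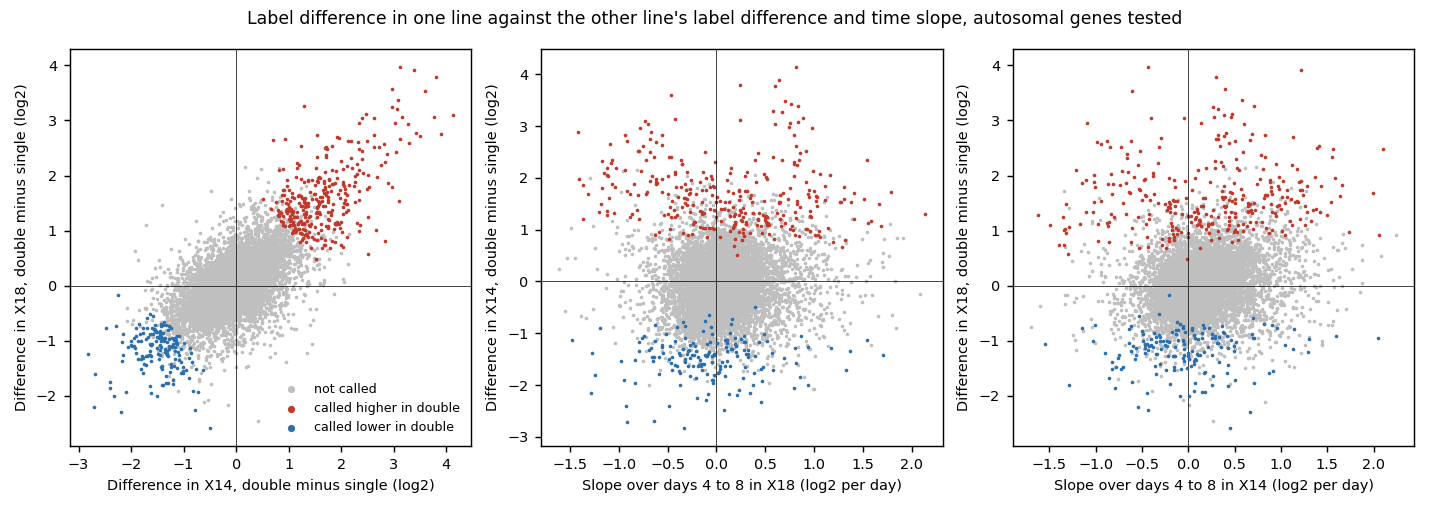
Each point is an autosomal gene tested (11210 genes). The left panel plots the mean log2 difference of double minus single over days 5 to 8 in X14 (horizontal) against that in X18 (vertical), and the other panels plot the difference in one line against the time slope of the other line over days 4 to 8 in log2 per day. Red and blue points are genes called higher (312) and lower (165) in double. The points follow a diagonal in the left panel, while in the other panels red points lie at both negative and positive slopes.

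Speed was measured along a time axis that was built in the other line. For 9126 autosomal genes averaging 10 RPM or more, the slope of each gene over days 4 to 8 was taken from both cultures of one line, and every late library of the other line was projected on these slopes. The slopes of the lines were alike (r = 0.81 across genes). Averaged over days 5 to 8, the double culture lay ahead of the single culture by 0.164 day in X14 and by 0.609 day in X18. The lead was not constant: double lay behind single on day 5 in both lines and ahead on days 6, 7 and 8. In X14 the difference in position was -0.41, 0.27, 0.27 and 0.52 day on days 5, 6, 7 and 8. In X18 it was -0.45, 0.71, 0.55 and 1.63 day. These 8 values had a mean of 0.39 with an SD of 0.66 day, so the mean lead was smaller than its own spread between pairs. Without day 5 the lead was 0.459 day in X14 and 1.55 days in X18, and without day 8 it was 0.0368 and 0.204 day.

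**Figure D2:**
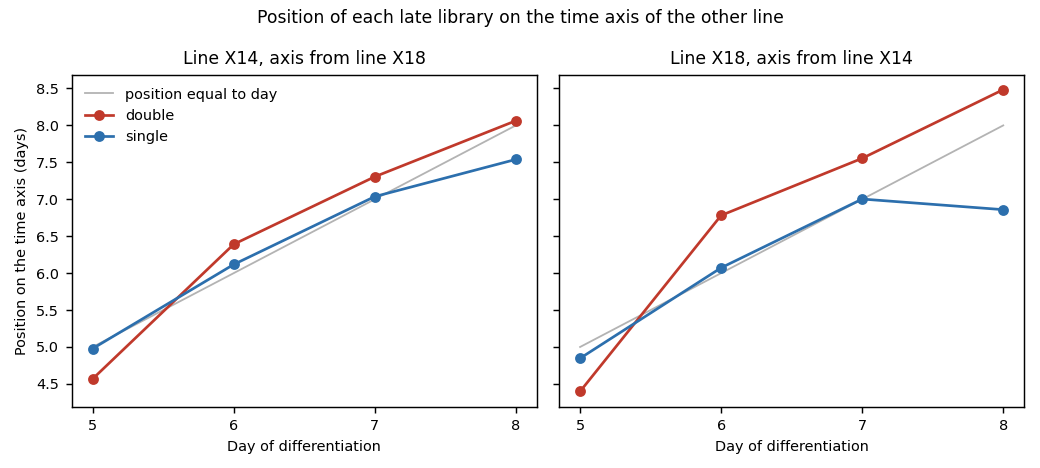
Position of each late library on the time axis of the other line (vertical, in days) by day of differentiation (horizontal), for line X14 on the left and X18 on the right. Red points are double, blue points single, and the grey line marks a position equal to the day. Red lies under blue on day 5 and above it from day 6, and the X18 single library of day 8 (position 6.86) does not lie above its day 7 library.

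The double culture moved further along the axis per day in both lines, by 0.28 days per day more than single in X14 and 0.61 in X18 over days 5 to 8. The axis is scaled so that the cultures of a line average 1 day per day, so their rates carry this difference and no more. In a second comparison each library was matched to the day of the other line with whose mean profile it correlated most, and 14 of the 16 libraries matched their own day. The exceptions were both single libraries of day 8, which matched day 7 (r = 0.946 against 0.943 for day 8 in X14, and 0.934 for day 7 in X18).

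Most of the difference between double and single, averaged over days 5 to 8, did not lie along this axis. In this average the negative lead of day 5 offsets the leads of later days, and noise in individual genes counts as off the axis. The correlation between a gene's difference and its time slope in the other line was 0.11 in X14 and 0.26 in X18, and the axis took up 0.655% and 6.94% of the summed squared differences. By comparison, the differences of the lines correlated with each other with r = 0.71 over the same 9126 genes. Day by day, the correlation between lines was 0.46, 0.53, 0.52 and 0.67 on days 5 to 8, and the correlation with the slope rose from -0.03 to 0.21 in X14 and from -0.12 to 0.37 in X18. All these correlations are across genes, which are not independent replicates.

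The called genes split between both directions of time. A gene was counted as rising or falling when its slope over days 4 to 8 was at least 0.25 log2 per day either way in both lines. Of the 312 genes higher in double, 132 rose (42.3%) and 77 fell (24.7%), against 14.9% and 5.05% of all autosomal genes tested. Of the 165 genes lower in double, 30 rose (18.2%) and 45 fell (27.3%). A lead of double would make rising genes higher and falling genes lower, which held for 177 of the 477 called genes. The opposite held for 107 genes, and 193 neither rose nor fell in both lines. Slopes and differences came from the same libraries.

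Otx2, a homeobox factor of the primed state and of anterior neural tissue, parted between the cultures late. On days 5, 6, 7 and 8 it stood at 118, 90.5, 42.0 and 11.9 RPM in X14 double and at 101, 85.2, 115 and 61.7 RPM in X14 single. In X18 it stood at 113, 106, 54.0 and 28.7 RPM in double and at 104, 139, 83.9 and 74.9 RPM in single. On days 5 and 6 the pairs differed by at most 0.39 either way on the log2 scale, and on days 7 and 8 both double libraries lay below both single libraries of the same day. Averaged over the 8 pairs the difference was -0.73 (SE 0.26, adjusted p = 0.076), which did not pass the test, but it changed with day by -0.70 per day (SE 0.12, adjusted p = 0.01). Without day 8 the average difference was -0.34, and 0 autosomal genes changed with day (limma, with 1608 at an unadjusted p under 0.05), so this call was lost, as were those of Eomes, Nanog and the Nodal pathway genes.

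Aqp3, a membrane channel for water and glycerol found in epithelia, was higher in double on each day. On days 5 to 8 its level was 91.0, 21.5, 58.5 and 56.1 RPM in X14 double and 70.0, 20.7, 61.7 and 47.9 RPM in X18 double. The single cultures held 23.9, 0, 2.65 and 2.43 RPM in X14 and 11.1, 1.24, 3.58 and 2.38 RPM in X18. Double was higher in 8 of 8 pairs, and the groups overlapped only through the X14 single library of day 5 and the double libraries of day 6. The difference was 3.79 (SE 0.28, adjusted p = 3.2e-06), the largest among called genes with the same sign in 8 pairs and at least 10 RPM in the higher group.

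**Figure D3:**
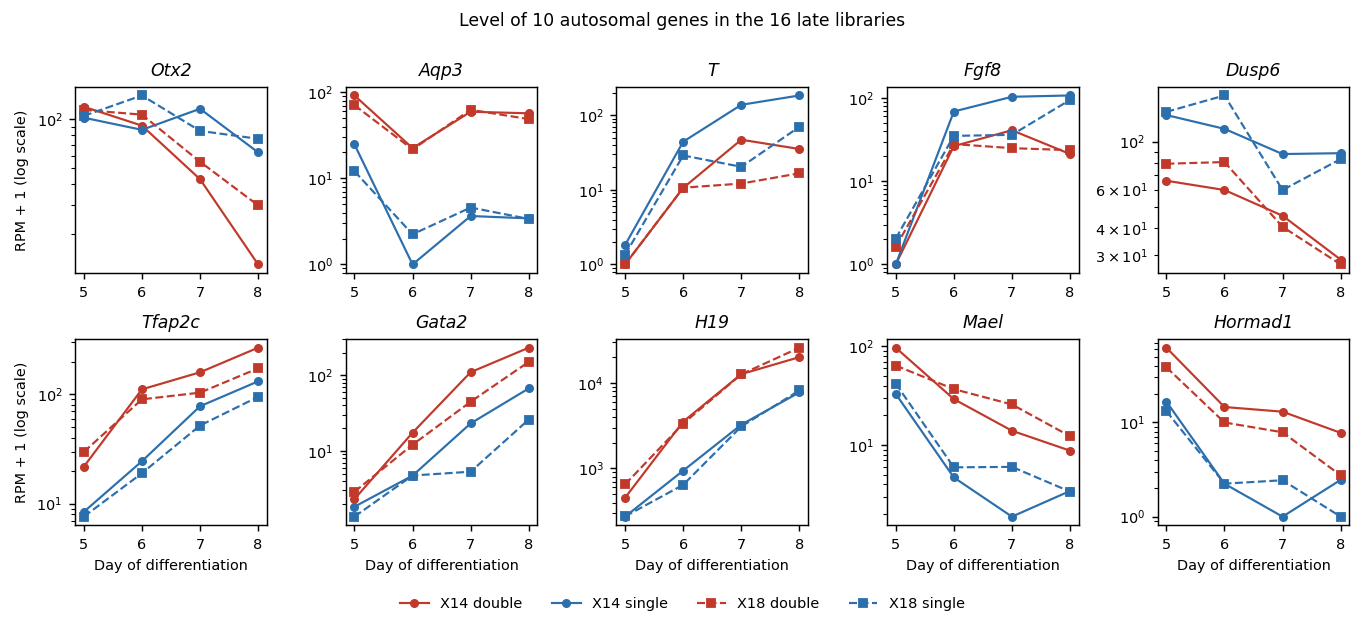
Level of 10 autosomal genes (RPM plus 1, log scale, vertical) by day of differentiation (horizontal), with 1 point for each of the 16 libraries. Red is double and blue is single, circles and solid lines are X14, and squares and dashed lines are X18. Red and blue part late for Otx2, red lies above blue throughout for Aqp3, Tfap2c, Gata2, H19, Mael and Hormad1, and red lies below blue for Dusp6 throughout and for T and Fgf8 from day 6, apart from day 7, when T and Fgf8 in X14 double lay above X18 single.

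Several transcription factors of trophoblast and surface ectoderm were higher in double. Of the 13 genes of this list, 7 passed the filter on low values, and 5 of these were called higher (Tfap2c, Gata2, Gata3, Ascl2 and Dlx3) and 0 lower, with a median difference of 1.51 against -0.06 over all autosomal genes tested. Over all autosomal genes tested, 2.78% were called higher. In X14 alone the calls of Gata2, Gata3, Ascl2 and Dlx3 were lost, while Tfap2c kept its call in every alternative. Gata2, which acts in trophoblast and blood, lay at 1.30 to 231 RPM (median 30.05) in double and at 0.347 to 66.1 RPM (median 4.01) in single. It rose with time in every culture, and double was higher in 8 of 8 pairs by 2.11 (SE 0.27, adjusted p = 2.6e-04). On day 8 it stood at 231 and 149.7 RPM in double and at 66.1 and 24.98 RPM in single.

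Tfap2c, an AP-2 factor of trophoblast, primordial germ cells and ectoderm, lay at 20.8 to 267 RPM (median 107) in double and at 6.60 to 131 RPM (median 37.2) in single. Double was higher in 8 of 8 pairs by 1.51 (SE 0.19, adjusted p = 2.3e-04), although the ranges over all days overlapped. Ascl2, a factor of the placental spongiotrophoblast, differed by 1.67 (SE 0.22, adjusted p = 4.2e-04). Gata3 differed by 2.13 (SE 0.39, adjusted p = 0.0032) and Dlx3, a homeobox factor of placenta and epidermis, by 1.35 (SE 0.24, adjusted p = 0.003). Cdx2 and Elf5, defining factors of trophoblast, did not pass the filter on low values. Cdx2 lay between 0 and 6.96 RPM in double and between 0 and 14.6 RPM in single, and Elf5 did not exceed 0.870 RPM in double or 2.38 RPM in single. The summed level of the whole list ranged from 92.3 to 851 RPM in double and from 46.2 to 394 RPM in single. The median difference of its tested members was already 0.67 on days 1 to 4. In bulk libraries like these, fewer cells of a type and less RNA per cell cannot be told apart.

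Of 6 gap junction and placental epithelium genes, which were picked after their values were seen so that their count is a description, 5 were called higher in double and 1 was not called. Gjb5, a gap junction protein of skin and placenta, differed by 1.72 (SE 0.24, adjusted p = 5.3e-04). Elf3, an epithelial ETS factor, lay at 58.5 to 286 RPM (median 149) in double and at 19.8 to 109 RPM (median 38.2) in single, and differed by 1.77 (SE 0.10, adjusted p = 5.7e-07). The ligands Wnt6 and Wnt7b differed by 2.02 and 1.05 (adjusted p = 0.0049 and 0.019), and the Wnt7b call was lost in 11 of 25 alternatives, among them limma voom and quantile normalization, with 0.67 without day 6. General epithelial genes did not follow as a group: of the 12 genes of the simple epithelium list, all tested, 1 gene, the keratin Krt7, was called higher, by 1.39 (SE 0.21, adjusted p = 9.8e-04), and the list median was 0.02. Cldn4, a tight junction protein, did not overlap between the groups, with 440.3 to 623 RPM (median 571) in double and 209 to 379 RPM (median 293) in single, but its difference of 0.94 (SE 0.09, adjusted p = 3.2e-05) was under the minimum of 1. Ranges that did not overlap were found for 72 autosomal genes, or 0.642% of those tested. The E-cadherin gene Cdh1 and Epcam differed by -0.13 and -0.12.

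**Figure D4:**
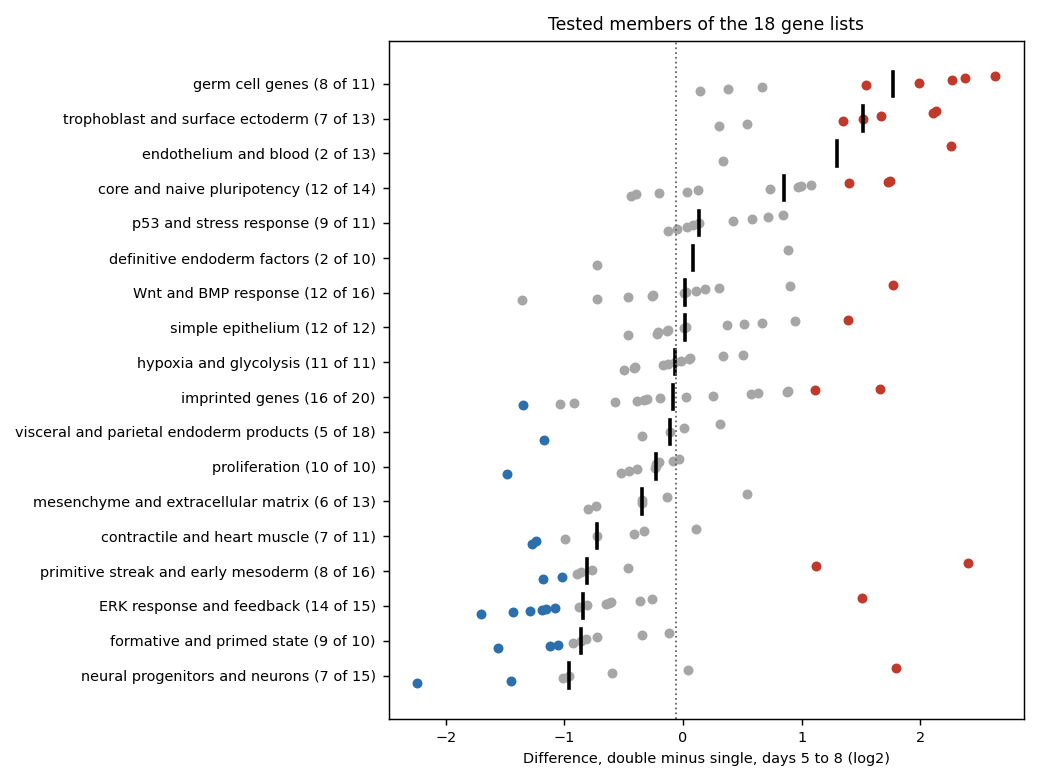
Log2 difference of double minus single on days 5 to 8 (horizontal) for each tested autosomal member of 18 gene lists (vertical, with the number of members tested of those listed). Red points were called higher in double, blue points lower, and grey points were not called. Thick bars are list medians and the dotted line is the median of all autosomal genes tested (-0.06). Germ cell and trophoblast lists lie furthest to the right, and neural, primed state, ERK and streak lists furthest to the left.

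Among imprinted genes, which are expressed from the maternal or the paternal copy alone, calls were few and went both ways. Of 20 listed, 16 autosomal genes were tested, 2 were called higher (H19 and Peg10) and 1 lower (Nnat), with a median of -0.08. H19, a maternally expressed noncoding RNA of trophoblast, mesoderm and endoderm, stood at 454, 3534, 12700.3 and 20063 RPM on days 5 to 8 in X14 double against 272, 943, 3252 and 7775 RPM in X14 single. In X18 it stood at 651, 3350.1, 12656 and 25885 RPM in double against 274, 643, 3099.6 and 8183 RPM in single. Each double library was higher than the single library of its pair, by 1.66 (SE 0.17, adjusted p = 4.8e-05; 1.05 after quantile normalization), and the double libraries of a day lay above both single libraries of the same day.

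Peg10, a paternally expressed gene needed for placenta formation, differed by 1.11 (SE 0.17, adjusted p = 9.1e-04) and was higher in 7 of 8 pairs. The exception was X14 on day 5, with 218 RPM in double and 249.3 RPM in single, and the call was lost without day 7 and in X14 alone. Nnat, paternally expressed in neural tissue, was lower in double in 8 of 8 pairs, with 20.8 to 84.8 RPM (median 44.1) against 64.6 to 159.9 RPM (median 115) and a difference of -1.35 (SE 0.14, adjusted p = 5.3e-05). Igf2, the neighbour of H19, differed by 0.87 (SE 0.33, adjusted p = 0.093), which did not pass the test, and Sgce, the neighbour of Peg10, by 0.03 (SE 0.19, adjusted p = 0.94). Without the X14 pair of day 5, 3 imprinted genes were called higher and 1 lower.

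The defining gene of the primitive streak was lower in double. Of 16 genes listed, 8 were tested, 2 were called lower (T and Fgf8) and 2 higher, with a median of -0.81. Among all autosomal genes tested, 1.47% were called lower and 2.78% higher. T (brachyury), the defining factor of the streak and early mesoderm, stood at 0, 9.61, 46.0 and 34.3 RPM on days 5 to 8 in X14 double and at 0.823, 43.2, 137 and 183 RPM in X14 single. The X18 cultures held 0, 9.68, 11.1 and 15.7 RPM in double and 0.347, 27.9, 19.4 and 69.0 RPM in single. On days 6, 7 and 8 single was higher in both lines, and on day 5 no library exceeded 1 RPM, so the positive log2 differences of that day rest on the 0.9 read written for a gene without reads. The difference was -1.18 (SE 0.34, adjusted p = 0.036), and the call was lost in 12 of 25 alternatives, all with the same sign. Fgf8, the FGF ligand of the streak, was also lower in double, by -1.02 (SE 0.28, adjusted p = 0.025), with 0, 25.4, 40.0 and 20.2 RPM in X14 double against 0, 67.9, 103 and 106 RPM in X14 single. Its call was lost in 11 of 25 alternatives, among them scaling to the 75th percentile.

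Of the same list, Hand1 and Snai1 were called higher in double. Hand1, a factor of trophoblast giant cells and of extraembryonic and cardiac mesoderm, lay at 0 to 104 RPM (median 31.4) in double and at 0 to 32.6 RPM (median 3.002) in single and differed by 2.41 (SE 0.39, adjusted p = 0.0016), with double higher in 8 of 8 pairs. On day 8 it stood at 104 and 73.1 RPM in double and 32.6 and 19.03 RPM in single. Snai1, a repressor of E-cadherin, differed by 1.12 (SE 0.23, adjusted p = 0.0069), and its call was lost in 6 of 24 alternatives, among them limma voom (0.78) and without the X14 pair of day 6. Mixl1, Mesp1, Tbx6, Gsc, Evx1, Msgn1 and Pdgfra did not pass the filter on low values. Eomes, a factor of both streak and trophoblast, had an average difference that did not pass the test (-0.89, SE 0.48, adjusted p = 0.24) but its difference changed with day by -1.30 per day (SE 0.24, adjusted p = 0.013). T and Gata2 both had positive slopes over days 4 to 8, T of 2.05 and 1.71 log2 per day and Gata2 of 2.10 and 1.79 in X14 and X18, yet T was lower in double and Gata2 higher.

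Genes of the Nodal pathway, picked after their values were seen, changed their difference over the days. Lefty1, a Nodal inhibitor, stood at 80.6, 245, 34.99 and 18.7 RPM in X14 double and 37.0, 139, 101 and 56.8 RPM in X14 single on days 5 to 8. The X18 cultures held 89.3, 285, 47.1 and 27.9 RPM in double and 23.6, 144, 82.5 and 86.8 RPM in single. Double was higher on days 5 and 6 and lower on days 7 and 8 in both lines, so the average difference was -0.09 and the change with day -1.15 per day (SE 0.13, adjusted p = 0.0013). Of 6 such genes tested, 5 had a difference that moved towards single with day (adjusted p under 0.05), among them Nodal, Lefty1, Lefty2 and Tdgf1. Over all autosomal genes 2.39% did so and 2.9% moved towards double.

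Genes of the formative and primed state had lower values in double. Of 10 listed, 9 were tested, 3 were called lower (Fgf5, Zic2 and Tdgf1), 0 higher, and all 9 had a negative difference (median -0.86). Calls lower in double made up 1.47% of all autosomal genes tested. Zic2, a zinc finger factor of the primed state, did not overlap between the groups, with 6.499 to 33.5 RPM (median 22.9) in double and 44.0 to 103 RPM (median 62.0) in single, and differed by -1.56 (SE 0.20, adjusted p = 2.5e-04). Fgf5 was lower in double in 8 of 8 pairs, by -1.06 (SE 0.19, adjusted p = 0.0027). Tdgf1, the Nodal co-receptor Cripto, was lower in 7 of 8 pairs, by -1.12 (SE 0.23, adjusted p = 0.0066). The Fgf5 call was lost in 6 of 25 alternatives, among them without the X14 pair of day 7 or of day 8, and the Tdgf1 call in 4 of 25, among them without the X14 pair of day 8. The de novo DNA methyltransferase Dnmt3b was lower in 8 of 8 pairs by -0.92 (SE 0.16, adjusted p = 0.002), just under the minimum of 1, while Dnmt3a differed by -0.12 (SE 0.21, adjusted p = 0.76). The cofactor of both, Dnmt3l, picked after its values were seen, was higher, with 106 to 460.2 RPM (median 315) in double and 39.3 to 242 RPM (median 124) in single, by 1.30 (SE 0.11, adjusted p = 1.1e-05).

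Some naive pluripotency genes were higher in double. Of 14 listed, 12 were tested, 3 were called higher (Klf2, Tbx3 and Dppa3) and 0 lower, with a median of 0.85, and without the X14 pair of day 5 the calls were 6. Calls higher in double made up 2.78% of all autosomal genes tested. Klf2 lay at 10.4 to 41.3 RPM (median 25.4) in double and at 3.13 to 10.7 RPM (median 6.52) in single, higher in 8 of 8 pairs by 1.74 (SE 0.21, adjusted p = 2.0e-04). Tbx3, which also acts in extraembryonic tissue, differed by 1.73 (SE 0.43, adjusted p = 0.018), and Dppa3, also a germ cell gene, by 1.40 (SE 0.31, adjusted p = 0.0095). The Tbx3 call was lost in 6 of 25 alternatives, without the X14 pair of day 8, without day 6, 7 or 8 and in each line alone, and the Dppa3 call in 3 of 25, without day 6 and in each line alone. Esrrb and Tfcp2l1 differed by 0.99 and 0.97 (adjusted p = 0.015 and 0.013), under the minimum of 1. The core factors Pou5f1, Nanog and Sox2 differed by -0.40, -0.44 and 0.13 (adjusted p = 0.21, 0.28 and 0.75), and the difference of Nanog changed with day by -0.78 per day (SE 0.08, adjusted p = 9.3e-04). On day 8 Nanog stood at 73.2 and 70.5 RPM in double and 202 and 264 RPM in single.

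Several targets and feedback inhibitors of the ERK pathway were lower in double. Of 15 listed, 14 were tested, and 6 were called lower (Dusp6, Spry2, Spry4, Spred1, Etv4 and Egr1) and 1 higher (Fos), with a median of -0.84 and 13 of 14 differences below 0. The shares over all autosomal genes tested were 1.47% called lower and 2.78% called higher. Dusp6, the ERK phosphatase, stood at 65.0, 58.8, 44.5 and 27.5 RPM on days 5 to 8 in X14 double and 132, 114, 86.6 and 87.5 RPM in X14 single. The X18 cultures held 78.1, 79.5, 39.4 and 26.1 RPM in double and 136, 162, 58.8 and 82.1 RPM in single. Double was lower in 8 of 8 pairs, by -1.08 (SE 0.13, adjusted p = 2.1e-04), and without day 8 or the X14 pair of day 8 it fell under the minimum of 1 (-0.89 without day 8). Spred1, an inhibitor of Ras activation, lay at 27.3 to 76.0 RPM (median 41.0) in double and 64.2 to 138 RPM (median 98.6) in single, by -1.16 (SE 0.15, adjusted p = 2.5e-04). The Sprouty genes Spry2 and Spry4 differed by -1.19 and -1.71 (adjusted p = 0.0018 and 0.0032), and the ETS factor Etv4 by -1.29 (adjusted p = 0.011). Without line X14 the difference of Spry2 was -0.78 and not called, and the calls of Etv4 and Egr1 were lost in 4 of 25 and 4 of 24 alternatives. Fos, an immediate early gene of the same pathway, was higher in 8 of 8 pairs, by 1.5 (SE 0.27, adjusted p = 0.0028), but in X14 alone its difference was 0.90 and not called. Ccnd1, the cyclin that growth factor signals induce, was lower in 8 of 8 pairs, with 18.2 to 122 RPM (median 35.8) against 77.1 to 244 RPM (median 94.9) and a difference of -1.49 (SE 0.15, adjusted p = 4.7e-05). On days 1 to 4 the median of the list was -0.70.

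Some germ-line genes were higher in double. The proteins of these genes act in meiosis and in the silencing of transposons, and in somatic cells the promoters of many of them are shut. Of 11 listed, 8 were tested, 5 were called higher (Dazl, Mael, Sycp1, Hormad1 and Slc25a31) and 0 lower, with a median of 1.77. Over all autosomal genes tested, 2.78% were called higher. The slopes of these 5 genes over days 4 to 8 were negative in both lines. Mael, of the piRNA pathway, stood at 96.2, 28.3, 12.9962 and 7.79 RPM on days 5 to 8 in X14 double and at 32.1, 3.70, 0.884 and 2.43 RPM in X14 single. In X18 it stood at 63.1, 35.9, 24.8 and 11.3 RPM in double and at 41.0, 4.96, 5.02 and 2.38 RPM in single. Double was higher in 8 of 8 pairs, by 2.26 (SE 0.29, adjusted p = 2.5e-04), and the slope was -1.02 and -0.81 log2 per day in X14 and X18. Hormad1 and Sycp1, proteins of the meiotic chromosome axis and the synaptonemal complex, differed by 2.37 (SE 0.32, adjusted p = 4.2e-04) and 2.63 (SE 0.33, adjusted p = 2.4e-04). Slc25a31, the ADP and ATP carrier of the testis, differed by 1.99 (SE 0.27, adjusted p = 4.5e-04), at levels between 2.08 and 12.9988 RPM in double and between 0 and 2.47 RPM in single. It passed the filter on low values (3 RPM on average) through the double libraries, so its call is given as a description. Sycp1 averaged under 10 RPM over the 16 libraries, so at its difference the single level was probably near or under this filter. Its call is therefore given as a description too. Dazl, an RNA-binding protein of germ cells, was higher in 6 of 8 pairs by 1.54 (SE 0.42, adjusted p = 0.026), and its call was lost in 11 of 24 alternatives. Ddx4, Sycp3 and Tdrd1 differed by 0.38, 0.66 and 0.14 and were not called. Without the X14 pair of day 5, 4 genes of the list were called. The list was already higher in double on days 1 to 4, with a median of 1.08.

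The promoters of these genes are shown, and the motif was picked after the values were seen, because most share the letters CACGTG, the palindromic E-box that MAX, MYC, MGA and other basic helix-loop-helix factors can bind. The sequences are from RefSeq on GRCm38.p6, the build that mm10 names, and give the 250 bases before the start site of the 5 called genes, 5′ to 3′ on the strand of the gene, with each CACGTG in capitals.
Mael, chr1:166238745-166238994, minus strand: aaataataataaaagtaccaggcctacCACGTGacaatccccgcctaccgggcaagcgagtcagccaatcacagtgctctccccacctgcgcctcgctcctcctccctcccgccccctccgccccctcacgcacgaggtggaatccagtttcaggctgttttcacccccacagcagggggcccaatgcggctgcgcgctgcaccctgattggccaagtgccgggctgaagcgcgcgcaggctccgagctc
Sycp1, chr3:102936101-102936350, minus strand: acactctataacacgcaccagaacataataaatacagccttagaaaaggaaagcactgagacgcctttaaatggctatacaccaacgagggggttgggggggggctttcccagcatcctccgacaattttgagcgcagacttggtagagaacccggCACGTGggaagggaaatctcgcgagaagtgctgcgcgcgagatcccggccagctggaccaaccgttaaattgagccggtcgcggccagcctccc
Hormad1, chr3:95559427-95559676, plus strand: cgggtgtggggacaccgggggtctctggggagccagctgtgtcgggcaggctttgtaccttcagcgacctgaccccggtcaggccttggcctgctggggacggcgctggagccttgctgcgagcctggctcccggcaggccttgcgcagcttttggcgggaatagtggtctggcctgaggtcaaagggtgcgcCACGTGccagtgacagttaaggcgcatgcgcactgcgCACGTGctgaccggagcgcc
Slc25a31, chr3:40708621-40708870, plus strand: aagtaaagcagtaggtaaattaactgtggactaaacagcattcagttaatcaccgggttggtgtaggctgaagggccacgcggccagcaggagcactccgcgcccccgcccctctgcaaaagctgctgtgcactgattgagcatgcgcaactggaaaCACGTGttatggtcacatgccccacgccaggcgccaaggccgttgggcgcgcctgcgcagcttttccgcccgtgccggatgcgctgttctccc
Dazl, chr17:50293621-50293870, minus strand: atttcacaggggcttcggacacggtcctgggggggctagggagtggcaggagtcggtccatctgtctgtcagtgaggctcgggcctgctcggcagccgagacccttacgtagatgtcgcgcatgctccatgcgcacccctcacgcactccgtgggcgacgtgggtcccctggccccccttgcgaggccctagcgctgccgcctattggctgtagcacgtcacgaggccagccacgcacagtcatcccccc

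The letters CACGTG stand 223 bases before the start site in Mael, 94 in Sycp1, 57 and 20 in Hormad1 and 93 in Slc25a31, counted from their first base, and they are not in the Dazl window. The motif reads the same on both strands and no other motif was searched. In windows from 250 bases before to 50 after a start site, it was found for 8 of the 11 genes of the list (72.7%). These were 4 of the 5 called and 4 of the other 6, of which Asz1, Brdt and Tex101 were not tested. Among all 32851 windows 7.15% held it, and among 7860 autosomal genes tested with a window 12.2%. Of all genes called higher in double with a window, 32 of 206 held it (15.5%), and of those called lower 11 of 103 (10.7%). The motif was thus found both in called list members and among the other 6. Of the germ-line genes outside the list that are described next, 3 of 7 with a window held it (42.9%).

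More germ-line genes were found among the calls and were picked after their values were seen. Fkbp6, a co-chaperone of the piRNA pathway, lay at 9.86 to 55.9 RPM (median 14.6) in double and at 0 to 14.2 RPM (median 2.43) in single and differed by 2.99 (SE 0.32, adjusted p = 8.6e-05). Tex19.1, expressed in germ cells and placenta, did not overlap between the groups, with 39.4 to 119.9 RPM (median 66.0) in double and 7.96 to 35.5 RPM (median 21.9) in single, by 1.80 (SE 0.17, adjusted p = 2.6e-05). Sohlh2, a helix-loop-helix factor of germ cells, did not overlap either, with 16.5 to 51.8 RPM (median 32.1) against 0 to 12.2 RPM (median 6.51), by 2.47 (SE 0.30, adjusted p = 2.1e-04). Stk31, Piwil2, Tdrd12, Stag3 and Rpl10l were higher by 2.56, 1.72, 1.54, 1.26 and 2.16, and the Stag3 call was lost in 7 of 25 alternatives, among them without the X14 pair of day 6 or of day 7 and in X18 alone, at 0.82. Stk31 and Rpl10l averaged under 10 RPM over the 16 libraries and probably passed the filter on low values largely through double. Nlrp4c, an oocyte gene of the NLR family, did not overlap, with 7.83 to 36.4 RPM (median 24.2) in double and 0 to 2.48 RPM (median 2.16) in single, and differed by 3.57 (SE 0.38, adjusted p = 7.7e-05). It passed the filter on low values (3 RPM on average) through the double libraries, so its call and its lack of overlap are given as a description.

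Genes of the 2-cell embryo, which a small share of mESCs switch on from time to time, were at few or no reads in the single libraries. They were picked after their values were seen. Of the 12 genes picked, 7 were tested, and since single was near 0 these passed the filter on low values through the double libraries, so that their calls are fixed by the filter and the choice and are given as a description. Zscan4d, a zinc finger gene that marks this state, stood at 2.60, 11.3, 23.0 and 12.98 RPM on days 5 to 8 in X14 double and at 0.823, 2.47, 1.77 and 0 RPM in X14 single. In X18 it stood at 1.25, 8.99, 15.4 and 8.70 RPM in double and at 2.43, 0, 0 and 0 RPM in single, where 0 means no read. It differed by 2.89 (SE 0.54, adjusted p = 0.0038), and Zscan4c by 3.14 (SE 0.40, adjusted p = 2.9e-04). Dub3, a deubiquitinase, differed by 3.11 (SE 0.54, adjusted p = 0.0023), Tcstv1 by 3.27 (SE 0.56, adjusted p = 0.0022) and Zfp352 by 2.54 (SE 0.46, adjusted p = 0.0032). All are members of families of near-identical copies, except Zfp352, so reads may have been split between copies and the level of a single gene is uncertain. Fitted differences of genes with no read in most single libraries depend on the 0.9 read written for them. The Prame-like genes Gm13078 and Gm13109, which belong to another such family, differed by 3.61 and 3.42, and their calls are a description for the same reason. On days 1 to 4 the median difference of the group was -1.30, the opposite sign.

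Neural and contractile genes held few calls, most of them lower in double. Of 15 genes of neural progenitors and neurons, 7 were tested (median -0.96), 2 were called lower and 1 higher. For this list and the contractile list, the shares over all autosomal genes tested were 1.47% lower and 2.78% higher. Cdh2, the N-cadherin of neural and mesodermal cells, was the gene with the most negative difference among those named by rule: it lay at 0 to 10.497 RPM (median 1.29) in double and at 4.11 to 23.3 RPM (median 7.02) in single, lower in 8 of 8 pairs by -2.24 (SE 0.41, adjusted p = 0.0032). Its call was lost in each line alone, and its size depends in part on the 0.9 read written for a gene without reads. Its median in double was under the 3 RPM of the filter, which it passed largely through the single libraries, so its call is given as a description. Olig2, a helix-loop-helix factor of neural progenitors, was lower in 7 of 8 pairs by -1.45 (SE 0.26, adjusted p = 0.0029), and without line X14 its difference was -0.95 and not called. Dll1, a Notch ligand, was higher by 1.80 (SE 0.49, adjusted p = 0.028), but its call was lost in 10 of 25 alternatives, and by limma voom its difference was 0.72. The defining neural factors Sox1, Pax3 and Neurog2 did not pass the filter on low values, and Pax6 differed by 0.05 at medians of 7.34 and 7.42 RPM. Of 11 contractile genes, 7 were tested (median -0.72), and 2 were called lower, the smooth muscle genes Acta2 by -1.27 (SE 0.39, adjusted p = 0.044) and Cnn1 by -1.24 (SE 0.20, adjusted p = 0.0017). The Acta2 call was lost in 13 of 25 alternatives, and without day 5 its difference was -0.52. The median of the contractile genes was lower on days 1 to 4, at -1.32. Of 6 mesenchyme and matrix genes tested among 13, 0 were called by limma, with 2 at an unadjusted p under 0.05, and Vim, an intermediate filament of mesenchyme, differed by -0.80 (SE 0.16, adjusted p = 0.0049).

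Endoderm and blood markers were mostly too low to test. Of 10 definitive endoderm factors 2 were tested and 0 were called by limma (1 at an unadjusted p under 0.05), with Sox17, Gata4, Gata6 and Hnf4a below the filter. Of 18 products of visceral and parietal endoderm 5 were tested. Dab2, an endocytic adaptor, was called lower by -1.18 (SE 0.31, adjusted p = 0.023), but this call was lost without the X14 pair of day 5 (difference -0.79 without line X14). Of 13 genes of endothelium and blood 2 were tested: Pecam1, an adhesion protein of endothelium that mESCs also carry, was higher in 8 of 8 pairs by 2.26 (SE 0.30, adjusted p = 3.8e-04), and Tek differed by 0.33 (SE 0.39, adjusted p = 0.62).

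Genes of proliferation, glycolysis, the p53 response and Wnt or BMP signalling held Ccnd1 and Msx2 as their calls. Of 10 proliferation genes 1 was called, Ccnd1, and the others differed by at most 0.53 in size, Mcm2 being the lowest at -0.53, with a list median of -0.23. Of 11 hypoxia and glycolysis genes 0 were called by limma (5 at an unadjusted p under 0.05, median -0.07), and Ldha differed by -0.41 (SE 0.11, adjusted p = 0.025). The p53 list held 0 calls by limma among 9 genes (4 at an unadjusted p under 0.05). Its summed level did not overlap, at 1033 to 1399 RPM in double and 757 to 979 RPM in single. This sum covers all 11 members, gives most weight to the most abundant of them and was not tested. The p53 targets Cdkn1a, Mdm2 and Ccng1 were higher in 8 of 8 pairs, by 0.71, 0.59 and 0.42 (adjusted p = 0.0019, 0.0022 and 0.016), under the minimum of 1. Of 12 Wnt and BMP response genes tested among 16, 1 was called, the homeobox gene Msx2, higher by 1.77 (SE 0.41, adjusted p = 0.011), a call lost in 4 of 25 alternatives, without day 6 or 7 and in each line alone. The BMP target Id2 was higher in 8 of 8 pairs by 0.90 (SE 0.16, adjusted p = 0.0025), while Id1 and Id3 differed by 0.02 and -0.26, and the Wnt target Axin2 differed by -0.72 (SE 0.34, adjusted p = 0.18).

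The 10 largest gains by the naming rule, Aqp3 first, were completed by Rsad2, Gm13078, Nlrp4c, E330020D12Rik, Gm13109, AC238940.3, Dub3, Fkbp6 and Nos1, between 2.84 and 3.79. AC238940.3 did not exceed 1.23 RPM in single, so it passed the filter on low values through double, like Nlrp4c and Dub3. Gm13078 and Gm13109 averaged under 10 RPM over the 16 libraries, so at differences of 3.61 and 3.42 they did so as well. The calls of these genes are given as a description. Rsad2, the antiviral protein viperin, stood at 167 and 87.0 RPM in double on day 8 against 17.98 and 4.76 RPM in single, with a difference of 3.65 (SE 0.37, adjusted p = 5.3e-05). Other interferon-response genes, picked after their values were seen, were mostly not called: of 14 tested, Rsad2 included, 1 was called, and for 6 the difference moved towards single with day. Nos1, the neuronal nitric oxide synthase, differed by 2.84 (SE 0.43, adjusted p = 8.9e-04). The 10 largest losses included Cdh2, 9130008F23Rik, Enpp2, Mtmr11, Spry4, Has2, Ina, Cdk6 and Chac1, between -2.24 and -1.60. Has2 makes hyaluronan, Ina is a neuronal intermediate filament protein and Chac1 degrades glutathione. The Chac1 call was lost without day 8, the Ina call without day 6, and both in each line alone. Enpp2, the lysophospholipase autotaxin, lay at 2.08 to 24.9 RPM (median 9.12) in double and 14.3 to 78.1 RPM (median 37.6) in single and differed by -2.07 (SE 0.28, adjusted p = 4.5e-04). The cell cycle kinase Cdk6 differed by -1.60 (SE 0.26, adjusted p = 0.0014). Mtmr11 did not overlap between the groups, with 1.30 to 4.499 RPM (median 2.85) in double and 7.14 to 18.6 RPM (median 10.9) in single. Its median in double lay under the 3 RPM of the filter, so it passed largely through the single libraries. The same held for Cdh2 and for 9130008F23Rik (median 2.68 RPM in double). The calls of these genes, and the lack of overlap of Mtmr11, are given as a description.

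**Figure D5:**
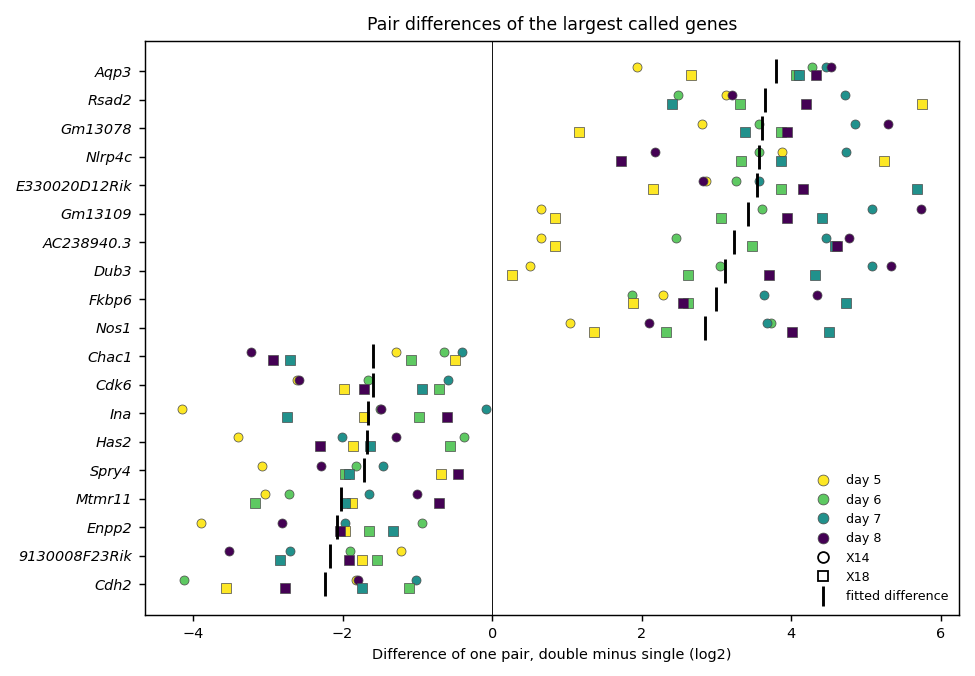
Log2 difference of double minus single (horizontal) in each of the 8 pairs for 19 of the 20 genes with the largest called differences (vertical). Colours give the day, circles are X14, squares X18, and black bars the fitted difference. All points of the upper 10 genes lie above 0 and all points of the other genes below 0, which is how the genes were chosen, and for Gm13109, AC238940.3 and Dub3 the day 5 pairs lie lowest.

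The difference changed over days 5 to 8 for 593 autosomal genes (5.29% of those tested, limma interaction of name and day, adjusted p under 0.05), 325 moving towards double and 268 towards single. Of these genes 35 were also among the 477 called on average, of which 25 widened with day. Of the 325 moving towards double, 155 were rising and 5 falling with time, and of the 268 moving towards single 19 were rising and 31 falling. Thus in 186 of these genes double moved further along the time course and in 24 less far. The count was not stable. It was 142 without the X14 pair of day 5, 21 without day 5, 42 without day 7, 178, 114, 343 and 68 without the day 7 or day 8 pair of X14 and of X18, and 0 without day 8 (limma, with 1608 at an unadjusted p under 0.05). The lines X18 and X14 alone gave 3 and 2.

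Most late calls were not calls on days 1 to 4, whose names were not checked by X-linked genes and were taken as given. In the 16 libraries of days 1 to 4, 628 of 10744 autosomal genes were called, 261 of them higher in double, and 91 genes were called in both periods, which is 19% of the late and 14.5% of the early calls. Late calls were thus called early more often than all autosomal genes tested on days 1 to 4 (628 of 10744). The change between periods itself passed the test for 707 of 11224 autosomal genes (6.3%). Among the 438 late calls tested over both periods, it passed for 152, of which 151 had the larger difference late. The median difference of genes called higher late was 1.53 on days 5 to 8 and 0.36 on days 1 to 4, and that of genes called lower -1.28 and -0.58. H19 moved from -0.44 on days 1 to 4 to 1.66, Krt7 from -1.17 to 1.39 and Otx2 from 0.81 to -0.73, while Gata3 stood at 2.15 and 2.13 and Dusp6 at -1.38 and -1.08. Over all autosomal genes tested in both periods, the difference moved towards double late in 3.71% and towards single in 2.59%. Part of this late direction is fixed by the choice of genes called late. The count of changes between periods was 1328 without the X14 pair of day 5, between 250 and 1582 when a day was left out, 79 in X18 alone and 12 in X14 alone.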

How the data were processed

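RNA-seq was deposited by the authors as 1 table of log2 values per gene and library. Its unit was inferred from the values as log2 RPKM, since the step of 1 read differed between genes by length, whereas the deposit calls the values log CPM and the supplement of the paper log2 rpm. Per the paper's methods, reads of 75 bases from one end went through trim_galore, then tophat or hisat2 against mm10, and were quantified in SeqMonk; the submitters' processing notes name TopHat2 2.0.12 and bcl2fastq. The annotation version and the strand setting are not given in the sources used here. A gene without reads held the value of 0.9 read. All 36 columns carry a sample's name, and 0 columns were left unmapped. The deposited values resolved to whole reads for 100% of 25965 genes, which gave RPM within a gene and depths of 612740 to 2445826 reads in genes on days 5 to 8. Floors of 3 reads cover counting error only.

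Double was compared with single in limma 3.58.1 (R 4.3.3) on the deposited log2 values of genes averaging 3 RPM or more, with a term for each pair of line and day and Benjamini-Hochberg adjustment over all genes tested, X-linked genes included; a call needed an adjusted p under 0.05 and a log2 difference of at least 1. Changes with day, between lines and between periods were interaction terms. Pairing by line and day comes from the names of the libraries. Deviations of double and single from the day's mean of both lines correlated across 9126 genes with r = 0.307, 0.0406, 0.266 and 0.699 on days 5 to 8. Libraries of a group differed by 1.57 to 10.7 chi-square per gene, so none was a repeat of another. The fits and the time axis were tested on simulated data. Named genes were Otx2 and Aqp3, the 10 largest called differences each way with the same sign in 8 pairs and at least 10 RPM in the higher group, members of 18 gene lists, and genes said to be picked after their values were seen. The comparison, its members and the lists were chosen with earlier results of these data known. Some members of the lists and of the largest differences are not reported here.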

Additional observations from a re-analysis of the deposited data

Results flagged for a closer look

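Of 81 groups of 8 values tested for 1 value far from the others, 5 had one, where chance gives about 1 in 20. The groups were the 8 paired differences of each of 78 named genes, the reads in genes of the libraries of each name, and the differences in position on the time axis. All 5 were paired differences of named genes. The log2 difference of Dab2 was -3.19 in the X14 pair of day 5, that of Peg10 -0.19 in the same pair, that of Rpl10l 0.40 in the X18 pair of day 6, that of Sohlh2 4.83 in the X14 pair of day 6 and that of Tdrd12 3.26 in the X14 pair of day 7.

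The difference between double and single changed with day for 593 autosomal genes (limma interaction, adjusted p under 0.05). Among the named genes, the change in log2 per day was 1.34 for AC238940.3, 1.0 for Acta2, 0.65 for Aqp3, 1.43 for Dub3, 1.37 for Gm13109, 1.53 for Tcstv1 and 1.15 for Zfp352. It was negative, moving towards single, at -0.84 for Dppa3, -0.66 for Fgf8, -0.70 for Otx2, -0.80 for T and -0.67 for Tdgf1.

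The difference on days 5 to 8 departed from that on days 1 to 4 for 707 autosomal genes. Among the named genes, the late minus the early log2 difference was 4.83 for AC238940.3, 1.69 for Ascl2, 2.72 for Dll1, 1.52 for Dnmt3l, 4.62 for Dub3, 2.84 for E330020D12Rik, 1.34 for Elf3, 1.99 for Fkbp6, 4.30 for Gm13078, 5.23 for Gm13109, 2.10 for H19, 2.01 for Hand1, 2.56 for Krt7, 1.30 for Mael, 1.91 for Msx2, 2.27 for Nos1, 1.76 for Pecam1, 2.86 for Rsad2, 1.59 for Sohlh2, 4.57 for Tcstv1, 1.23 for Tdrd12, 4.04 for Usp17l5, 4.99 for Zscan4c and 4.81 for Zscan4d. It was negative at -1.80 for 9130008F23Rik, -0.93 for Ccnd1, -3.33 for Cdh2, -1.53 for Chac1, -1.23 for Fgf5, -1.53 for Otx2 and -1.14 for Tdgf1. Named genes called late were chosen for their late difference, so their late difference being the larger is a description.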

How the results depend on the processing

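The count of 477 called genes (312 higher in double) was 258 (165 higher) among genes averaging 10 RPM or more and 1476 (660 higher) without a minimum fold. Other filters, scalings, limma voom, an estimated correlation within cultures and means of the 4 cultures gave 407 to 635. Without the paired block the count was 465, 302 of them higher. Leaving out a pair, a day or a line gave 116 (X14 alone) to 678 (without day 5), and 76 to 508 higher; leaving out a line drops its partner library too. The count of changes with day was 996 on log2(RPM + 1), 1074 by limma voom and 0 to 847 over the leave-outs, and that of changes between periods 12 to 1582. The count of differences between lines stayed at 0 over its leave-outs. The mean lead ranged from 0.12 days (without day 8) to 1.002 days (without day 5). The median of all autosomal genes was -0.06 to -0.03 under the scalings, and 62.1% to 68.4% of calls were higher. For 78 named genes, 1913 recomputed differences kept their direction, 166 lost the call and 26 genes were called under every alternative. In X14 alone 44 of 78 genes lost the call, and in X18 alone 26 of 75. The causes were not tested. Depth limits what can be said of genes under about 4 RPM in the shallowest library.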
